A study of Mus musculus with 6 samples.

Results

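The genes described here control how a macrophage takes up lipid and how it disposes of cholesterol. Nr1h3, Abca1, Abcg1, Apoe and Mylip are grouped as liver X receptor (LXR) and efflux genes. Pparg, Lpl, Cd36, Msr1 and Trem2 are the uptake genes. Nr1h3 encodes the receptor, and Mylip is an LXR-induced gene that limits lipoprotein uptake and is not itself an efflux gene. The members were chosen by name, 10 of the 24391 genes in the count table and of 23284 in a table of FPKM. FPKM divides fragments by transcript length and by library size. The choice was made with earlier comparisons of CCL5-/- and WT cells in view, so their values in that comparison are a description. The fit across all genes gives their size and error, and whether a member passed in it is read no further.

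RNA-seq was run on tumour-associated macrophages (TAMs), which are macrophages found inside a tumour, here a colorectal cancer in BALB/C mice. The F4/80low population, with high CD11b and low F4/80 (2 surface proteins of myeloid cells), gave 2 CCL5-/- libraries, lacking the chemokine gene Ccl5, and 2 WT libraries. The F4/80hi population, with low CD11b and high F4/80, gave 1 library labelled CCL5-/- and 1 labelled WT. The labels give no age, no other allele, no treatment and nothing on whether the replicates are separate animals or pooled ones. A p-value therefore measures only the spread between these libraries.

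Macrophages swallow dying cells and lipoproteins and cannot break down the sterol ring. Excess cholesterol is turned into oxysterols, which bind LXR, and LXR then switches on the transporters that hand cholesterol to lipoprotein particles outside the cell. Low sterol in the endoplasmic reticulum instead frees the transcription factor SREBP2, which switches on cholesterol synthesis. Lipid uptake through scavenger receptors and the nuclear receptor PPARγ is a known trait of macrophages in lipid-rich tissue, tumours included.

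Abca1, which moves cholesterol and phospholipid to lipid-poor apolipoprotein A-I, is shown by its promoter because it had the lowest adjusted p of these genes between replicate 2 and replicate 1, a contrast that the choice of genes did not use. The 250 bases before its start follow from 5′ to 3′ on the minus strand of chr4:53159896-53160145 (GRCm38, RefSeq). Capitals mark the E-box CACGTG and the closest match to the LXR element, a direct repeat of AGGTCA with 4 bases between the copies:
Abca1: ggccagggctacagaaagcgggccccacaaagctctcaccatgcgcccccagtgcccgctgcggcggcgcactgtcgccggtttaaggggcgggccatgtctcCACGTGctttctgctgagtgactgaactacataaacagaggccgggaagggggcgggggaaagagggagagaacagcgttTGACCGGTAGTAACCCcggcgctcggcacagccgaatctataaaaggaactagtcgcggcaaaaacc
Read on the opposite strand, with the 2 copies of the repeat in capitals, that match is this:
Abca1 LXR element match: GGGTTActacCGGTCA
The element searched was AGGTCA, then NNNN, then AGGTCA, on both strands. The Abca1 match begins 67 bases before the start and carries 3 mismatches in the fixed bases, and the E-box begins 147 bases before the start. With up to 2 mismatches, 0 of the 7 members in the promoter table held the element, against 2.57% of 32851 promoters. With up to 3 mismatches, a limit set after the Abca1 promoter was seen, it was 1 of 7 against 18.51%. CACGTG, which reads alike on both strands, was in 1 of 7, against 6.02% of promoters, and does not overlap the other match. Members were counted once per gene, whereas the shares count promoters, of which a gene can have several, so the units differ. A match describes letters in a window and not a bound site. Abcg1, Lpl and Msr1 were not matched in that table.

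Both sets of libraries need a description before their values. Count totals in F4/80low ran from 9280635 to 22411342, and the ribosomal RNA precursor Rn45s took 50.03% and 58.4% of counts in the CCL5-/- and WT replicate 1 libraries, against 1.38% and 0.844% in the replicate 2 libraries. Ccl5 was at 4.07 and 3.01 CPM (reads scaled to library size, with TMM factors) in CCL5-/- and at 43.8 and 130.7 CPM in WT, as the labels have it. The F4/80hi labels name the opposite genotype to the sample titles, and Ccl5 went against the labels, with 145 FPKM where CCL5-/- is the label and 15.7 FPKM where WT is. Over 5743 genes, the ratio of the library labelled WT to the library labelled CCL5-/- differed from the CCL5-/- to WT ratio of F4/80low replicate 1 by a median of 0.08 on the log2 scale. Counting error in that replicate 1 pair alone gives 0.08, and against the replicate 2 pair the difference was 0.29. The F4/80hi pair thus differed from the replicate 1 pair, taken crosswise, by less than the sampling noise. The 2 pairs are counted once, as the same 2 libraries, and the population that replicate 1 came from cannot be told from these files. Macrophage genes were read in all 4 count libraries, all 9 of 9 on the marker list, Adgre1 (F4/80) and Itgam (CD11b) included.

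Apoe was the most abundant member per length in all 4 F4/80low libraries, at 225 and 276 CPM per kilobase of exon in CCL5-/- and 317 and 473 in WT. Msr1 followed at 25.8 to 56.8 CPM per kilobase. Cd36 (7.77 to 18.6) and Trem2 (7.94 to 13.0) overlapped each other. Abca1 was at 4.27 to 25.1, across the range of both. Abcg1 (2.13 to 4.10) and Mylip (2.27 to 4.57) overlapped, Nr1h3 was at 0.751 to 2.69, and Lpl (0.259 to 0.747) overlapped Pparg (0.0394 to 0.712). The length used is the merged exons of each gene and not that of a transcript, so this order holds for that length only. The lowest members rest on few reads: Pparg had 1 and 16 reads in CCL5-/- and 3 and 64 in WT, with exact Poisson 95% intervals of 0.0253 to 5.57 and 9.15 to 26.0 reads in CCL5-/- and 0.619 to 8.77 and 49.3 to 81.7 in WT, counting error only.

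**Figure D1:**
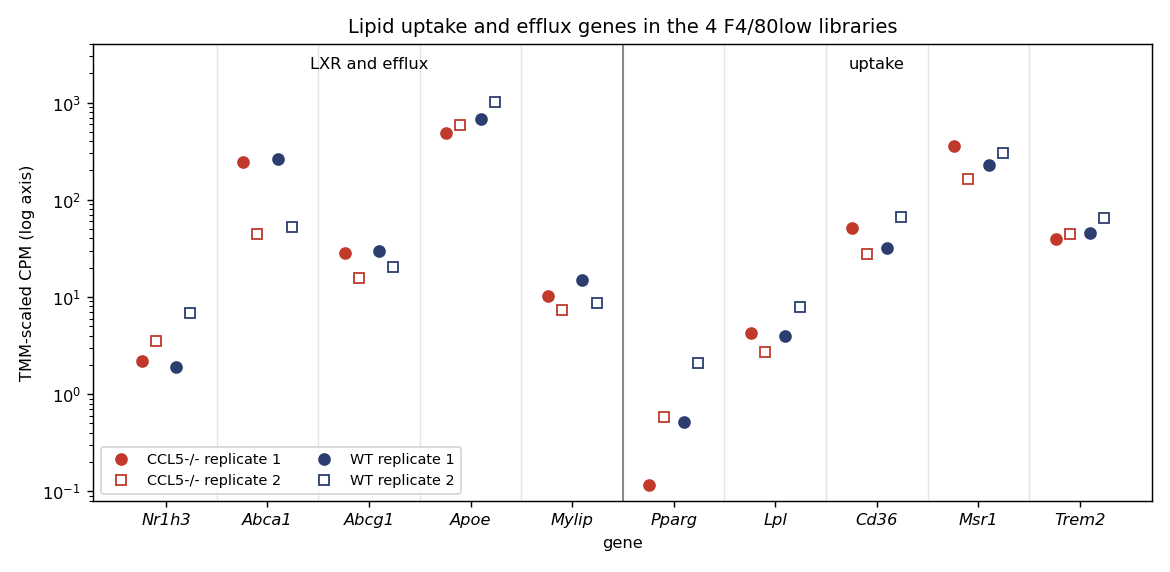
TMM-scaled CPM (log axis) of the 10 genes in each F4/80low library, CCL5-/- in red left of WT in blue, with filled circles for replicate 1 and open squares for replicate 2. Abca1 separates by replicate number (44.3 and 52.2 CPM in replicate 2, 246 and 260 CPM in replicate 1), and Apoe and Trem2 are the only members whose genotypes do not overlap.

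The first comparison asked how these genes differ with loss of Ccl5 in F4/80low TAMs, and whether efflux and uptake genes move opposite to sterol synthesis. The fitted change was below 0 for all 10 members, from -1.81 (Pparg) to -0.01 (Msr1) on the log2 scale, with a median of -0.40. It was below 0 for 51.9% of the 12710 genes tested, whose median was -0.01. It was above 0 for all 19 sterol synthesis enzymes tested, with a median of 0.70, against 48.1% of all genes. Across all genes edgeR's quasi-likelihood test called 0 (0% at an adjusted p of 0.05), where 41 had an unadjusted p under 0.05, and DESeq2 called 1. With the replicate number as a term edgeR called 10 genes (0.0787%), where 745 had an unadjusted p under 0.05. Called genes included 0 members and 0 sterol enzymes in each of these fits, which does not show that their levels are alike. The deleted gene Ccl5 itself, at -4.64 (SE 0.69), was not called by edgeR without the replicate number. Nor was it called with that number as a term (edgeR adjusted p = 0.099). Bulk RNA does not tell fewer cells of a type from less RNA per cell.

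Within the replicate pairs the direction was less uniform. In the replicate 2 pair all 10 members were lower in CCL5-/-, as were 52.3% of all genes, with a median of -0.83 for the members. In the replicate 1 pair 6 were lower and 4 were higher (Nr1h3, Lpl, Cd36 and Msr1), with a median of -0.09. These 4 of 10 had opposite signs in the pairs, as did 48.6% of all genes. Thus 6 of 10 members were lower in both pairs, against 26.5% of all genes, and 18 of 19 sterol enzymes were higher in both, against 24.8%. The list was proposed with these values known, and the shares are read no further. The levels of CCL5-/- and WT did not overlap for 2 of 10 members, both lower in CCL5-/-, against 8.24% of all genes in that direction. They did not overlap for 13 of 19 sterol enzymes, all higher, against 8.36%.

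Nr1h3 encodes LXRα, the oxysterol-sensing receptor that switches on the efflux genes. It was at 2.21 and 3.56 CPM in CCL5-/- and at 1.89 and 6.77 CPM in WT, from 19 and 97 reads and from 11 and 206 reads. The groups overlapped, WT replicate 2 standing alone at the top, and the log2 change was -0.61 (SE 0.72). The replicate 1 pair alone gave 0.21 and the replicate 2 pair -0.91. Leaving out 1 library gave values between -1.19 (without WT replicate 1) and 0.62 (without WT replicate 2).

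Abca1 was at 246 and 44.3 CPM in CCL5-/- and at 260 and 52.2 CPM in WT. The replicates of each genotype lay far apart and the same-numbered libraries close together, so the log2 change was -0.10 with an SE of 1.04. The pairs gave -0.08 and -0.24 for replicates 1 and 2. Leaving out 1 library moved the fitted value to between -1.76 (without CCL5-/- replicate 1) and 1.47 (without WT replicate 1).

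Abcg1, the transporter that loads cholesterol onto mature HDL, was at 28.0 and 15.5 CPM in CCL5-/- and at 29.9 and 20.3 CPM in WT. The groups overlapped, with both replicate 1 libraries above both replicate 2 libraries. The log2 change was -0.21 (SE 0.45), and the pairs gave -0.09 and -0.39. It was 0.16 without CCL5-/- replicate 2 and 0.10 without WT replicate 1, against -0.64 without CCL5-/- replicate 1 and -0.46 without WT replicate 2.

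Apoe encodes apolipoprotein E, an LXR target that macrophages secrete and that takes up exported cholesterol. It was at 481 and 589 CPM in CCL5-/- and at 678 and 1012 CPM in WT, so that both CCL5-/- libraries lay below both WT libraries. The log2 change was -0.66 (SE 0.50), with -0.49 and -0.78 in the pairs, and it stayed below 0 without each library in turn, between -0.90 and -0.34. Hepatocytes also make apolipoprotein E, and CCL5-/- replicate 1 held reads of the albumin gene Alb, a liver marker: it was at 75.9 and 0 CPM in CCL5-/- and at 0 and 0.0329 CPM in WT. The hepatocyte list (10 of 10 genes read in at least 1 library, 3 in all 4) summed to 225 and 62.2 CPM in CCL5-/- and 102 and 72.8 CPM in WT. The transferrin gene Trf made up most of the sum in the other 3 libraries, and without it, a choice made after seeing the data, the sums were 130 and 0.845 CPM in CCL5-/- and 2.92 and 1.02 CPM in WT. The part of hepatocyte reads in the Apoe level was not tested.

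Mylip encodes IDOL, an LXR-induced ubiquitin ligase that limits lipoprotein uptake. It was at 10.3 and 7.34 CPM in CCL5-/- and at 14.8 and 8.71 CPM in WT. The groups overlapped, and the log2 change was -0.40 (SE 0.45), with -0.51 and -0.24 in the pairs. Leaving out 1 library gave values between -0.75 (without WT replicate 2) and 0.03 (without WT replicate 1).

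Among the uptake genes, Pparg encodes PPARγ, a fatty-acid-sensing receptor that raises Cd36. It was at 0.116 and 0.588 CPM in CCL5-/- and at 0.515 and 2.104 CPM in WT. The groups overlapped, each CCL5-/- library lay below its same-numbered WT library, and the log2 change was -1.81 (SE 1.08), with -1.46 and -1.66 in the pairs. It was -3.49 without CCL5-/- replicate 2 and -1.20 without CCL5-/- replicate 1. At 1 and 3 reads the replicate 1 pair cannot show a difference at this depth.

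Lpl encodes lipoprotein lipase, which frees fatty acids from triglyceride-rich particles. It was at 4.30 and 2.72 CPM in CCL5-/- and at 3.95 and 7.82 CPM in WT, where WT replicate 2 stood apart at the top. The log2 change was -0.78 (SE 0.55). The pairs gave 0.12 and -1.49, and without WT replicate 2 the change was -0.18.

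Cd36, the scavenger receptor for oxidised lipoproteins and long-chain fatty acids, was at 50.9 and 27.9 CPM in CCL5-/- and at 31.8 and 66.9 CPM in WT. Of the CCL5-/- values, 50.9 CPM lay inside the WT range and 27.9 CPM below it. The log2 change was -0.33 (SE 0.53), while the pairs had opposite signs, 0.68 and -1.26. Msr1, the class A scavenger receptor for modified LDL, was likewise higher in CCL5-/- for replicate 1 and lower for replicate 2, at 360 and 163 CPM in CCL5-/- and 228 and 300 CPM in WT. Its log2 change was -0.01 (SE 0.54), with 0.66 and -0.88 in the pairs. Leaving out 1 library turned the sign of both. Cd36 was lowest, at -0.78, when CCL5-/- replicate 1 was left out and highest, at 0.31, when WT replicate 2 was. Msr1 lay between -0.65 (without CCL5-/- replicate 1) and 0.45 (without CCL5-/- replicate 2).

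Some macrophage and monocyte markers had the signs of Cd36 and Msr1 in the pairs, and others did not. The 9 genes summed to 4367 and 3550 CPM in CCL5-/- and to 3272 and 6093 CPM in WT, so that the sum was higher in CCL5-/- for replicate 1 and lower for replicate 2. The lysozyme gene Lyz2, which dominates that sum, had log2 changes of 0.58 and -0.82 in the pairs, Adgre1 had 0.59 and -0.55, Ccr2 had 0.32 and -1.15, and Fcgr1 had 0.35 and -0.70, while Csf1r had 0.12 and -0.26. The other 4 were lower in both pairs, with -0.04 and -0.33 for Itgam, -0.01 and -0.30 for Cd68, -0.02 and -1.42 for Ly6c2 and -0.72 and -0.83 for Mertk. Thus 5 of 9 were higher in CCL5-/- for replicate 1, against 50.6% of all genes, and 9 of 9 lower for replicate 2, against 52.3%. T cell markers, 5 of 5 in the table read in all libraries, summed to 30.7 and 22.1 CPM in CCL5-/- and to 21.3 and 35.4 CPM in WT, with 4 of 5 higher in CCL5-/- for replicate 1 (median 0.30) and 5 of 5 lower for replicate 2 (median -0.64). Neutrophil markers, 10 of 10 read in all libraries, summed to 683 and 314 CPM in CCL5-/- and to 3664 and 538 CPM in WT. Adipocytes also make Lpl, Cd36 and Pparg, and their markers, 2 of 7 read in all 4 libraries, summed to 3.14 and 3.31 CPM in CCL5-/- and 1.55 and 2.99 CPM in WT, with Adipoq and Lep at 0 reads throughout. Endothelial markers (7 of 7 read in at least 1 library), from cells that also carry Cd36, summed to 15.6 and 14.7 CPM in CCL5-/- and 23.9 and 19.99 CPM in WT. The part of cell composition in the member values was not tested.

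Trem2 encodes a receptor that binds lipids, lipoproteins and apolipoprotein E and marks lipid-loaded macrophages. It was at 39.3 and 44.9 CPM in CCL5-/- and at 45.9 and 64.3 CPM in WT. Both CCL5-/- libraries lay below both WT libraries (44.9 against 45.9 CPM at the nearest). The log2 change was -0.39 (SE 0.37), with -0.22 and -0.52 in the pairs, and -0.12 without WT replicate 2. The adaptor Tyrobp, through which TREM2 signals, was at 321 and 207 CPM in CCL5-/- and at 361 and 496 CPM in WT, also without overlap (log2 change -0.70, SE 0.48).

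In the authors' deposited table, made from the same counts, the log2 fold change was below 0 for the same 10 of 10 members, from -0.36 (Apoe) to -0.0032 (Msr1), with a lowest adjusted p of 0.9999. How those changes were scaled is unknown here.

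**Figure D2:**
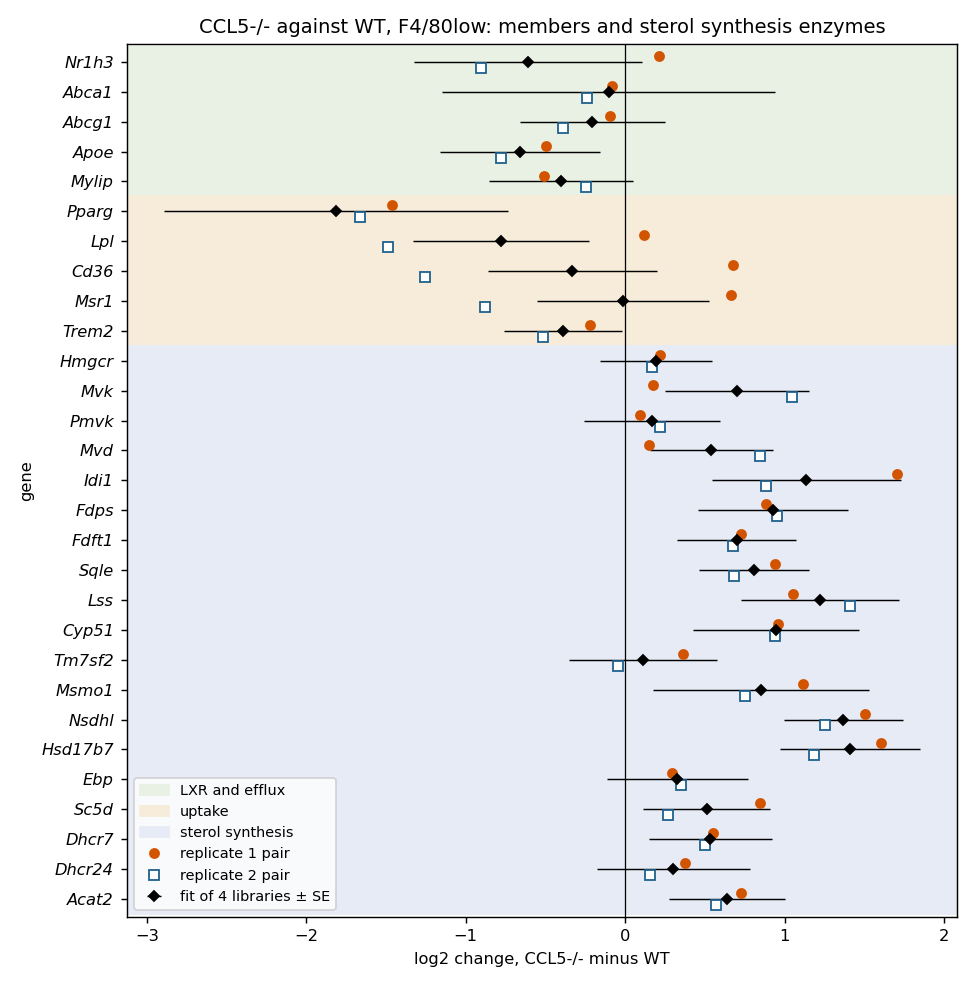
Log2 change of CCL5-/- minus WT (horizontal axis) for the 10 genes and the 19 sterol synthesis enzymes tested, with the fit of 4 libraries ± SE as diamonds, the replicate 1 pair as circles and the replicate 2 pair as open squares. Sterol enzymes lie right of 0 in both pairs for 18 of 19, whereas Nr1h3, Lpl, Cd36 and Msr1 change side between the pairs.

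The sterol synthesis enzymes, the set the question names, were described by their 4 most abundant members. Cyp51, the lanosterol demethylase, was at 74.6 and 138 CPM in CCL5-/- and at 38.3 and 72.0 CPM in WT, a log2 change of 0.95 (SE 0.52). Fdps, the farnesyl diphosphate synthase, had 0.93 (SE 0.47), and Sqle, the squalene epoxidase, had 0.81 (SE 0.34). Msmo1, a sterol methyl oxidase, had 0.85 (SE 0.68), with 61.1 and 139 CPM in CCL5-/- and 28.2 and 82.4 CPM in WT. Hmgcs1 was listed at 0 reads in all 4 count libraries but at 8.34 FPKM (labelled CCL5-/-) and 22.03 FPKM (labelled WT) in the F4/80hi libraries, so a 0 in the count table does not show that a gene is silent. Of the 7 tested SREBP2 regulators and other targets, 7 had a fitted change above 0 (median 0.64) and 0 were called. Srebf2, which encodes SREBP2, had 0.66 (SE 0.39), and Insig1, which holds the SREBP complex in place, had 0.50 (SE 0.37). The SREBP escort gene Scap had 0.22 (SE 0.41), with -0.28 and 0.77 in the pairs.

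Other genes of the LXR pathway were split in direction. Of 15 tested partners and targets 8 had a fitted change above 0 and 7 below (median 0.10), and 0 were called. The LXR target Arl4c, a small GTPase gene, had -0.23 (SE 0.38). The fatty acid genes Scd2 (0.94, SE 0.47), Scd1 (0.65, SE 0.37) and Fasn (0.79, SE 0.42), which LXR and SREBP1 both drive, lay on the other side, and their CCL5-/- and WT levels did not overlap. Srebf1, which encodes SREBP1, had 0.34 (SE 0.39). Members of the wider uptake and lipid-carrier list were split 7 above and 11 below 0 among 18 tested (median -0.09), with Spp1, the osteopontin gene, at -0.12, the lectin gene Lgals3 at -0.06 and the endocytic receptor gene Lrp1 at 0.10. Genes of cholesterol storage, hydrolysis and oxysterols were 4 above and 8 below among 12 tested (median -0.09). Npc2 and Npc1, which carry cholesterol out of lysosomes, had -0.24 and -0.10, the cholesterol esterification gene Soat1 -0.03, and the mitochondrial thiolase gene Acat1 0.17. No gene of these lists was called between the genotypes.

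The second comparison set replicate 2 against replicate 1 among the libraries labelled F4/80low, with genotype as a term in the fit, since Rn45s splits the libraries in this way. The rule that chose the genes did not use this contrast. Abca1 and Abcg1 fell and Nr1h3 rose in replicate 2, so 3 of 10 members were called (edgeR, adjusted p under 0.05), and 31.8% of all genes were. By direction 2 of 10 fell, against 18.0% of all genes, and 1 of 10 rose, against 13.9%. The shares are near the background, so nothing particular to these genes is read from them.

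Abca1 stood at 44.3 and 52.2 CPM in the replicate 2 libraries (CCL5-/- and WT), against 246 and 260 CPM in those of replicate 1, a mean 5.24-fold higher in replicate 1 with no overlap. The log2 change was -2.39 (SE 0.23, edgeR adjusted p = 5.6e-06), and it passed under every alternative run, between -2.51 and -2.27. Abcg1 stood at 15.5 and 20.3 CPM in replicate 2, against 28.0 and 29.9 CPM in replicate 1, without overlap, a log2 change of -0.70 (SE 0.22, edgeR adjusted p = 0.025). Nr1h3, the gene of their regulator, stood at 3.56 and 6.77 CPM in replicate 2, against 2.21 and 1.89 CPM in replicate 1, again without overlap. Its log2 change was 1.23 (SE 0.45, edgeR adjusted p = 0.048), the opposite direction to the transporters. The calls of Abcg1 and Nr1h3 did not hold in DESeq2 (adjusted p = 0.11 and 0.17). Neither was called without CCL5-/- replicate 1 or without WT replicate 1. Nr1h3 had 0.79 without WT replicate 2 (edgeR adjusted p = 0.34), and Abcg1 had -0.51 without CCL5-/- replicate 2 (edgeR adjusted p = 0.16).

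The other 7 members did not pass. Mylip had a log2 change of -0.63 (SE 0.27, edgeR adjusted p = 0.091), Pparg had 2.098 (SE 0.87, edgeR adjusted p = 0.080) and Apoe had 0.43 (SE 0.25, edgeR adjusted p = 0.21). Apoe was called without CCL5-/- replicate 2 (0.80, edgeR adjusted p = 0.040). Msr1 had -0.37 (SE 0.35), Trem2 0.34 (SE 0.22), Lpl 0.15 (SE 0.43) and Cd36 0.09 (SE 0.52). For Cd36 the values were 27.9 and 66.9 CPM in replicate 2, against 50.9 and 31.8 CPM in replicate 1, so that the replicate numbers overlapped.

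Exon length moved with this contrast. Over the 12261 tested genes with a length in GENCODE M21 (96.5% of those tested), Spearman's rho between merged exon length and the replicate 2 minus replicate 1 change was -0.45, a description across genes of the same 4 libraries. With genes split by length into 4 classes of near-equal size, the median change was 0.48 in the shortest class, 0.18 and -0.12 in the next 2, and -0.59 in the longest, of which 41.5% were called lower in replicate 2 against 6.62% of the shortest. Abca1 (10363 bases of merged exons) and Abcg1 (7298 bases) belong to the longest class, and Nr1h3 (2515 bases) and Apoe (2138 bases) to the shortest. Abca1, at -2.39, lay below the median of its class, and Lpl (10478 bases), at 0.15, lay above it. Of the long genes on the other lists, Lrp1, at 346 and 269 CPM in replicate 2 against 1045 and 1030 CPM in replicate 1, had -1.76 (edgeR adjusted p = 0.00017). The LXR target Mertk is not a long gene but belongs to the class with a median of 0.18, and had -2.12 (edgeR adjusted p = 0.00022). Of 15 other LXR partners and targets, 2 rose (Nr1h2 and Pltp) and 6 fell in replicate 2, against 13.9% and 18.0% of all genes. Of 10 neutrophil markers 7 fell, against the same 18.0%. Of 9 macrophage and monocyte markers 2 fell (Itgam and Mertk) and 7 were not called. Itgam was at 144 and 180 CPM in replicate 2 against 580 and 598 CPM in replicate 1. Adgre1 was at 35.3 and 51.8 CPM in replicate 2 against 53.7 and 35.6 CPM in replicate 1, so that the replicate numbers overlapped. The parts of length, ribosomal RNA, cell composition and the unsettled population of replicate 1 in the Abca1 difference were not tested, and since all go with replicate number they cannot be told apart.

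**Figure D3:**
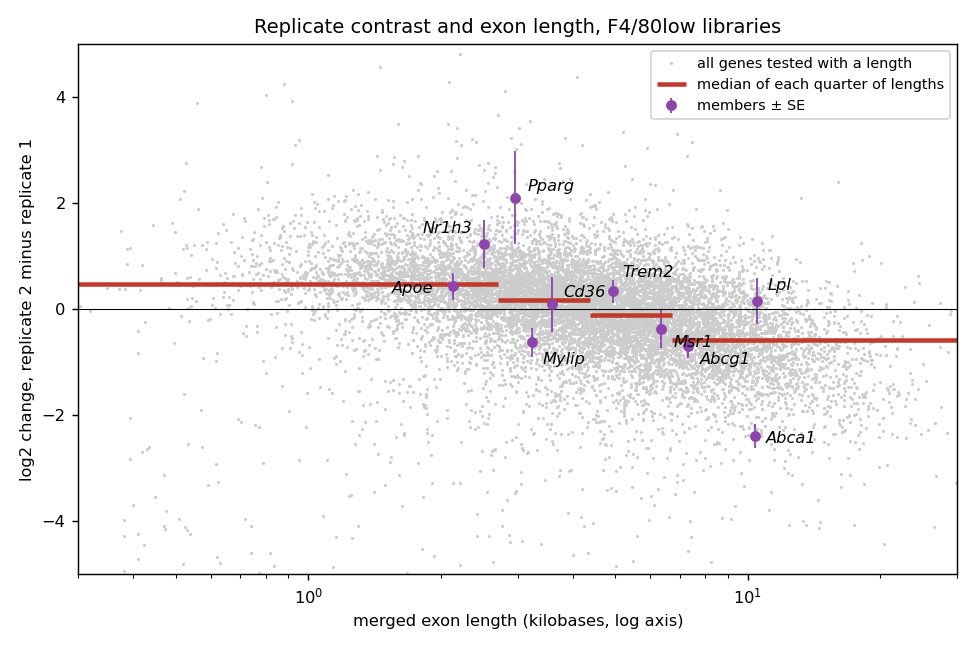
Log2 change of replicate 2 minus replicate 1 (vertical axis) against merged exon length in kilobases (log axis) for all tested genes with a length in grey, the medians of the 4 length classes in red and the members ± SE in purple. The medians run from 0.48 to -0.59 with length, and Abca1, at -2.39, lies below its class. Genes beyond the axes are not drawn.

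The F4/80hi libraries gave the last comparison, labelled CCL5-/- against labelled WT, with no replicate check and no test. Because these libraries match the replicate 1 pair crosswise, they add FPKM levels and not a further sample. Apoe had 527 FPKM in the labelled CCL5-/- library, against 405 FPKM in the labelled WT one, the highest of the members in each. The liver marker Alb was at 0 FPKM in the labelled CCL5-/- library and at 53.0 FPKM in the labelled WT one. The part of hepatocyte reads in these Apoe levels was not tested. Msr1 was at 131 and 200 FPKM, Trem2 at 47.8 and 40.8 FPKM, Abca1 at 33.8 and 31.8 FPKM and Cd36 at 17.4 and 28.9 FPKM, labelled CCL5-/- first. Abcg1 was at 5.89 and 5.65 FPKM and Mylip at 5.84 and 4.68 FPKM in the same order. Lpl was at 2.46 and 2.08 FPKM, Nr1h3 at 1.54 and 1.47 FPKM and Pparg at 0.533 and 0.0965 FPKM. The authors' lower and upper bounds of the libraries overlapped for all 10. The order in FPKM differs from that per kilobase of merged exons. Trem2 lay above Abca1 and Lpl above Nr1h3 in FPKM, but below them per kilobase in both replicate 1 libraries.

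On the log2(FPKM + 1) scale, which understates changes of low genes, Cd36 differed by -0.70 and Msr1 by -0.60, labelled CCL5-/- minus labelled WT. The other 7 members with at least 1 FPKM in either library lay between 0.04 (Nr1h3) and 0.38 (Apoe), and Pparg, under that level in both, is given no difference. None of these 9 reached a 2-fold difference on that scale, which 1.58% of 11670 genes did on the lower side and 2.35% on the higher side. The sterol enzymes lay on the side of Cd36 and Msr1, with 19 of 19 below 0 and a median of -0.76. Of all 11670 genes at that level 6109 were below 0, with a median of -0.02. The authors' bounds of the 2 libraries overlapped for each of the 19 enzymes. These 19 include Hmgcs1 and lack Msmo1, unlike the 19 tested in the counts. For the enzymes in both sets the sign is opposite to that in the replicate 1 pair, as the crosswise match of the libraries gives. Within this pair of libraries Cd36 and Msr1 lay on the side of sterol synthesis, and the other 7 members with a difference lay on the other. Of those, Abca1 (0.09), Abcg1 (0.05) and Nr1h3 (0.04) were near 0, and the bounds overlapped for every member. The sides are given by the labels, and Ccl5 went against the labels.

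The members' values thus bear on the question differently in the 2 pairs. In the replicate 1 pair, the sterol enzymes had a median of 0.73, the LXR and efflux members -0.09 and the uptake members 0.12. In the replicate 2 pair, the medians were 0.68, -0.39 and -1.26. Apoe, Mylip, Trem2, Pparg, Abca1 and Abcg1 were lower in CCL5-/- in both pairs, though in the replicate 1 pair by less than 0.10 on the log2 scale for Abca1 and Abcg1, and on 1 and 3 reads for Pparg. No difference between the efflux, uptake and synthesis sets was tested, since their members were chosen with these values known.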

How the data were processed

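The authors deposited whole-number read counts per gene for the 4 F4/80low libraries, with no row lacking a gene name. Their comparison table, per the file headers, holds a normalised signal (counts divided by 1 factor per library), log2 fold changes, a score (the test statistic) and p-values. The F4/80hi table holds the authors' FPKM with bounds. TopHat2 2.1.1, Cufflinks 2.2.1, HTSeq, STAR, DESeq2, cutadapt, FastQC and bcl2fastq 2.17.1.14 are named, without a role, per the submitters' processing notes. Which tool and build made which table, and strand use, are not given in the sources used here, so genes overlapping Nr1h3, Abcg1 and Pparg cannot be separated. FPKM loci overlapped GRCm38 genes for 99.06% of 20911 symbols.

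Counts went into edgeR 4.0.16 under R 4.3.3, with low genes removed by filterByExpr, TMM factors and a robust two-sided quasi-likelihood F test, and Benjamini-Hochberg adjustment over all genes. An SE is the log2 change over the square root of F. Pair values are differences of log2 CPM with a prior count of 2. On simulated counts the genotype fit without the replicate number called none of the changed genes, and the fits with that number called most of the larger changes. The simulated spread came from the fit with the replicate number, and the genotype simulation kept the observed replicate difference. That setting favours having the number as a term, so the outcome does not rank the genotype fits. Depth behind FPKM is unknown. Alternatives were DESeq2 1.42.0, other scaling and filters, the replicate number as a term, and leaving out each library. Every member is named; of each other list the 4 most abundant tested genes are named, except any not reported here, and further genes were named after their values were seen. Members and lists were chosen with earlier results of these data known.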

Additional observations from a re-analysis of the deposited data

Results flagged for a closer look

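Differences between CCL5-/- and WT had opposite signs in the replicate pairs for 4 of 10 members, against 48.6% of all genes tested. That share is no higher than the background, so nothing particular to the members is read from it. Each pair value is 1 library minus 1 library. The difference between the pairs was not tested, because 4 libraries leave no replicate for it. Cd36 had -1.26 with replicate 2 and 0.68 with replicate 1, a difference of -1.94. Lpl had -1.49 and 0.12, a difference of -1.61. Msr1 had -0.88 and 0.66, a difference of -1.54. Nr1h3 had -0.91 and 0.21, a difference of -1.12, on 19 and 11 reads in the replicate 1 pair. Of 9 macrophage and monocyte markers, 5 had opposite signs in the pairs and 4 were lower in both, and their part in these differences was not tested.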

How the results depend on the processing

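The count of genes called between CCL5-/- and WT was 0, 10 with the replicate block and 1 in DESeq2, and it ran from 0 to 4 without each library in turn (4 without WT replicate 2, 1 without WT replicate 1 and 1 without CCL5-/- replicate 2). No alternative run called a member or a sterol enzyme. The block was not used in the main comparison because the labels do not say what a shared number means; deviations of same-numbered libraries correlated at 0.73. With it the medians were -0.37, -0.38 and 0.68 for the LXR and efflux members, the uptake members and the sterol enzymes. The count for replicate 2 against replicate 1 was 4047, and ran from 2067 (without WT replicate 1) to 3215 without each library, with 2336 without CCL5-/- replicate 1, in fits without genotype, since the fuller fit leaves no residual degrees of freedom. The uptake median was -1.26 in the replicate 2 pair alone, an alternative chosen after seeing the data, as was the replicate 1 pair. Without each library it ran from -0.78 to 0.04, the LXR and efflux median from -0.62 to 0.03, and the sterol median from 0.50 to 0.86. All 10 members stayed below 0 under the other scalings, DESeq2, no filter and the block, and 6 or 7 did without 1 of CCL5-/- replicate 2, WT replicate 1 or WT replicate 2. Of the 19 sterol enzymes, 19 stayed above 0 under the same settings and without WT replicate 2, and 18, 16 and 17 did without CCL5-/- replicate 1, CCL5-/- replicate 2 and WT replicate 1. Pparg has no value without WT replicate 2, where it failed the filter. Depth limits Pparg, Nr1h3 and Lpl, each under 50 reads in a library.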
